A study of Equus caballus with 28 samples.

Results

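The cluster of miR-362, miR-660, miR-532 and miR-500 is a row of neighbouring miRNA genes on the X chromosome. Its members were taken as every known mature horse miRNA (prefix eca) of miR-188, miR-362, miR-500, miR-501, miR-502, miR-532 and miR-660, whatever the letter or arm suffix. This gave 11 of the 844 miRNAs counted, of which 690 were known and 154 predicted. The members were eca-miR-188-3p, eca-miR-188-5p, eca-miR-362-3p, eca-miR-362-5p, eca-miR-500, eca-miR-501-5p, eca-miR-502-3p, eca-miR-502-5p, eca-miR-532-3p, eca-miR-532-5p and eca-miR-660, and each had at least 1 read.

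miRNAs of a cluster are commonly cut from a shared primary transcript. Each hairpin then yields a 5p and a 3p arm, which pair with different mRNAs, and usually 1 of the arms is kept in the Argonaute proteins that carry miRNAs to their targets. Transcription, hairpin processing and the stability of each arm all set the level of a mature miRNA, so neighbours can have very different levels. In mammals this cluster lies within CLCN5, the gene of a chloride/proton exchanger. In the RefSeq annotation of the horse assembly TB-T2T, 8 precursor genes followed each other in the order MIR532, MIR188, the first MIR500 copy, MIR362, MIR501, the second MIR500 copy, MIR660 and MIR502, all inside the span of CLCN5 and with no other miRNA gene between them. All 11 members matched these precursors by name, and eca-miR-500 matched a pair of copies that the mature count cannot separate.

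Endometrium, the lining of the uterus, and uterine fluid (UF) were collected 13 days after ovulation in a switch-back design, in which the same Warmblood mares were sampled in an inseminated, pregnant cycle and in a cyclic cycle without insemination. Small RNA was sequenced from endometrial biopsies of 5 pregnant and 4 cyclic cycles and from UF taken with a tampon in the same 5 and 4 cycles. From the same pregnant mares came the tissue of 5 embryos, without capsule and fluid, and the 5 yolk sac (YS) fluids drawn from those embryos. Ovulation had been induced with hCG in all cycles. Mare 5 had no cyclic library, so pregnant and cyclic samples formed pairs in 4 mares. The labels give a replicate number only, and that equal numbers mark the same mare was inferred from the design in the methods. A biopsy holds all cell types of the endometrium, and fewer cells of a type could not be told apart from less miRNA per cell.

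Levels are given as CPM, the reads of a miRNA divided by all miRNA reads of its library and multiplied by 1000000. Library totals were 61836 to 371630 reads in cyclic endometrium, 280065 to 590593 in pregnant endometrium, 62087 to 226308 in cyclic UF and 79173 to 152860 in pregnant UF. They were 28204 to 44768 in embryos and 4352 to 14531 in YS fluid, where a single read was worth 68.8 to 230 CPM. A count of 0 allows up to 3 reads, counting error only. That is 206 to 689 CPM in YS fluid, 5.08 to 10.7 CPM in pregnant endometrium and 8.07 to 48.5 CPM in cyclic endometrium. The summed markers of early embryonic cells (miR-302, miR-367, miR-371 and miR-372) reached 12020 to 65295 CPM in embryos and 34891 to 264130 CPM in YS fluid, against at most 9.97 CPM in endometrium and 32.2 CPM in UF. The 9 epithelial markers, with the miR-200 family among them, were read in all 6 groups and summed to 51343 to 74571 CPM in pregnant endometrium and 116225 to 194210 CPM in embryos, and stromal markers summed to 12362 to 46177 CPM in pregnant endometrium and to 156 to 797 CPM in embryos.

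The cluster was detected in all 28 libraries, and a few members carried nearly all of its reads. eca-miR-532-5p took 60.5% of the 13599 member reads and eca-miR-660 took 24.0%. eca-miR-532-3p had 748 reads over all libraries, eca-miR-502-3p 699, eca-miR-362-5p 289, eca-miR-362-3p 118, eca-miR-500 118 and eca-miR-188-5p 112. The remaining 3 members were near the limit of detection, with 18 reads for eca-miR-502-5p and 2 each for eca-miR-188-3p and eca-miR-501-5p. The gene of the most counted member, MIR532, stands at one end of the cluster and that of the second, MIR660, next to the last at the other end, with weakly read neighbours between them.

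**Figure D1:**
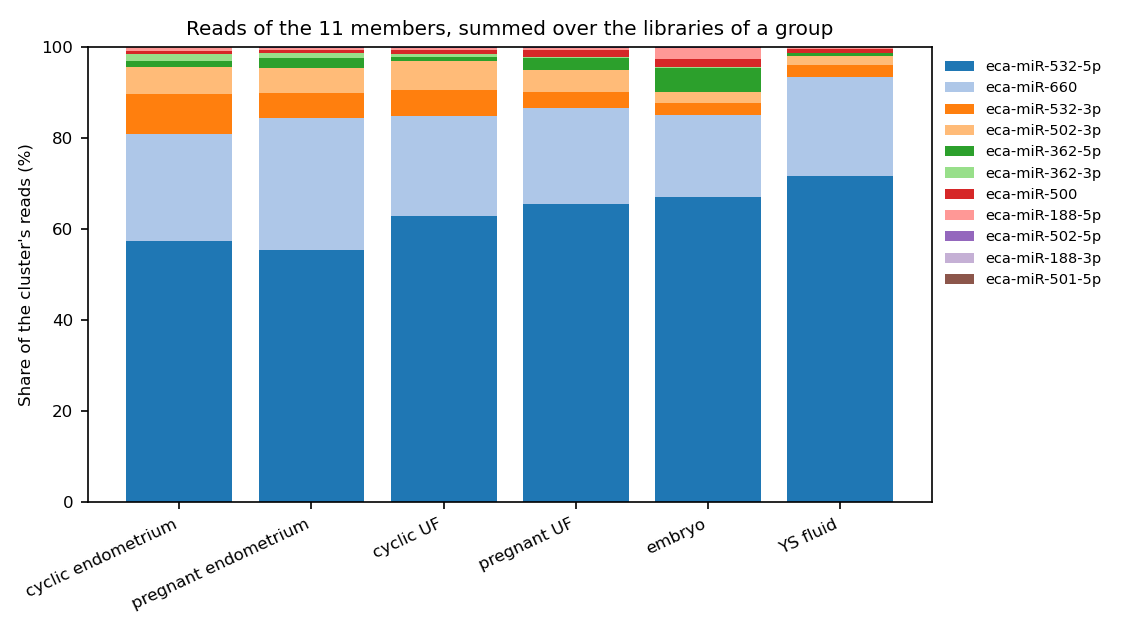
Share of the cluster's reads (%) taken by each of the 11 members, with the reads summed over the libraries of each of the 6 groups. eca-miR-532-5p and eca-miR-660 together fill most of every bar, and the band of eca-miR-362-5p is widest in the embryo.

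Summed over the members, the cluster stood at 2669 ± 946 CPM (SD, n = 4) in cyclic and 2555 ± 917 CPM (n = 5) in pregnant endometrium. In UF the sum was 4072 ± 2426 CPM (n = 4) in cyclic and 2773 ± 1485 CPM (n = 5) in pregnant samples. On this scale of plain library totals it was highest in embryos, at 8560 ± 2421 CPM (n = 5), and in YS fluid, at 7688 ± 4068 CPM (n = 5). The ranges of the 4 uterine groups overlapped, and so did those of embryo and YS fluid.

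eca-miR-532-5p, which has been studied for its pairing with the mRNA of the transcription factor RUNX3, was the most abundant member in every group. It measured 2232, 1455, 783 and 1951 CPM in the cyclic endometrium of mares 1 to 4 and 962, 1326, 999, 1728 and 1958 CPM in the pregnant endometrium of mares 1 to 5. In UF it measured 2967, 4361, 869.7 and 2124 CPM in cyclic samples and 876, 3540.0, 1642, 952 and 2135 CPM in pregnant ones. These groups overlapped throughout, with the cyclic samples of mare 3 the lowest of their group in both compartments. Embryos held 2376, 5562, 7486, 5196 and 7922 CPM and YS fluids 2505, 3528, 7194, 3906 and 10185 CPM, again in the order of mares 1 to 5. Every embryo and every YS fluid lay above every pregnant endometrium on this scale. Every embryo did so for 27.9% of all tested miRNAs, and the share for YS fluid was not counted. With the scaling used in the tests below, the log2 fold change of eca-miR-532-5p against pregnant endometrium was 0.71 in embryos and −0.00076 in YS fluid.

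Its partner arm from the same hairpin, eca-miR-532-3p, was far lower. It measured 97.0, 319, 99.6 and 277 CPM in cyclic and 119, 142.02, 67.7, 179 and 226 CPM in pregnant endometrium, and 493, 168, 80.5 and 262 CPM in cyclic and 134, 126, 85.0, 48.2 and 63.2 CPM in pregnant UF. Pregnant and cyclic values overlapped in both compartments. Embryos held 284, 201, 166, 277 and 242 CPM and YS fluids 396, 277, 229.6, 0 and 138 CPM, so that this arm, unlike the 5p arm, overlapped between embryo and pregnant endometrium.

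eca-miR-660, best known from tumour cells in which it lowers MDM2, the ubiquitin ligase of p53, was second in every group. Cyclic endometrium held 695, 714, 269 and 790.3 CPM in mares 1 to 4 and pregnant endometrium 483, 819.6, 354, 1007 and 1149 CPM in mares 1 to 5. Cyclic UF held 689, 1838, 177 and 749 CPM and pregnant UF 460.2, 962, 576, 301 and 594 CPM. The 4 uterine groups again overlapped, and mare 3 was again the lowest of the cyclic samples. Embryos held 1418, 2345, 1326, 1386 and 1280.1 CPM, all above every uterine sample but the cyclic UF of mare 2. YS fluids held 1714, 761, 3444, 459.6 and 2065 CPM, a range that overlapped the uterine values.

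eca-miR-362-5p, which can pair with the mRNA of CYLD, a deubiquitinase that restrains NF-κB signalling, was low in the uterus and much higher in the embryo. Cyclic endometrium held 0, 39.9, 5.38 and 64.7 CPM in mares 1 to 4 and pregnant endometrium 32.0, 56.2, 59.3, 82.1 and 34.7 CPM in mares 1 to 5. Cyclic UF held 11.5, 97.2, 0 and 30.8 CPM and pregnant UF 37.1, 159, 85.0, 12.1 and 63.2 CPM. Pregnant and cyclic groups overlapped in both compartments. Embryos held 141.82, 335, 663, 519.6 and 604 CPM, of which 4 values lay above every uterine sample and 1, that of mare 1, lay within the pregnant UF range. In YS fluid, 3 of 5 libraries had no read and the group held 3 reads in all, 264, 0, 76.5, 0 and 0 CPM, too few to place it.

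The other members ran as follows. eca-miR-362-3p, the partner arm, averaged 39.7 ± 28.6 CPM (SD, n = 4) in cyclic and 25.7 ± 21.3 CPM (n = 5) in pregnant endometrium, 33.4 ± 19.0 and 8.49 ± 7.91 CPM in cyclic and pregnant UF, and 31.2 ± 19.2 CPM in embryos, and no YS fluid library had a read of it. eca-miR-502-3p averaged 149.6 ± 22.1, 136 ± 49.4, 255 ± 147, 137 ± 78.5, 218 ± 87.2 and 146 ± 187.8 CPM in cyclic and pregnant endometrium, cyclic and pregnant UF, embryos and YS fluid, with all groups overlapping. eca-miR-500 stood at 13.98 to 38.1 CPM as means of the 4 uterine groups, at 136 ± 93.0 CPM in embryos and at 72.3 ± 104.8 CPM in YS fluid.

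eca-miR-188-5p, studied in marrow stromal cells for its part in the choice between bone and fat, had uterine group means of 15.1 to 21.9 CPM. Embryos held 284, 268, 138, 173 and 217 CPM of it, with no overlap with any uterine library, while 3 of 5 YS fluids had no read. The share of all miRNAs without overlap between embryos and all uterine libraries was not counted. eca-miR-502-5p averaged 1.73 CPM in cyclic and 3.77 CPM in pregnant endometrium, 5.52 and 3.16 CPM in cyclic and pregnant UF, and 13.8 CPM in embryos. eca-miR-188-3p and eca-miR-501-5p stayed under the detection floor in every library.

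**Figure D2:**
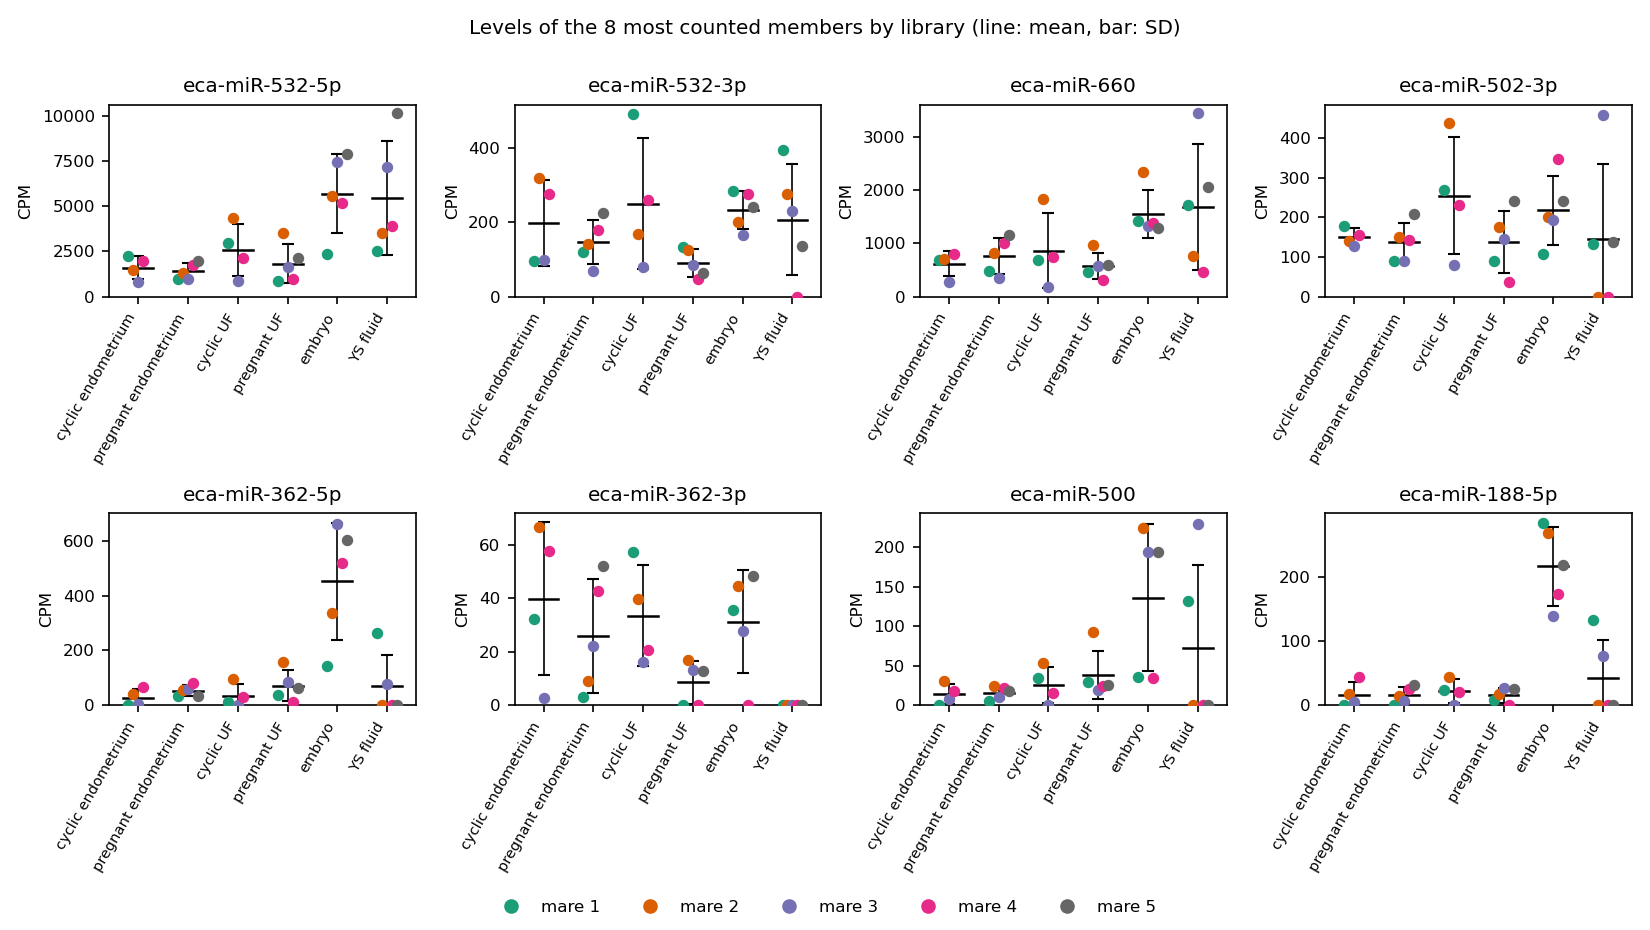
Levels (CPM, linear axes that start at 0 and differ between panels) of the 8 members with at least 100 reads in the 28 libraries, by group; points are libraries coloured by mare, the line is the mean and the bar the SD. eca-miR-188-5p in embryos lies above all uterine libraries, whereas eca-miR-502-3p overlaps between embryo and uterus. eca-miR-362-3p was at or under the floor of 3 reads in all 5 embryos, so its overlap with the uterus cannot be judged.

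The first comparison asked whether the cluster differed between the endometrium of pregnant and cyclic mares, and whether its members moved together. With edgeR's quasi-likelihood test and the mare as a block, 0 of 9 tested members passed a Benjamini-Hochberg adjusted p (FDR) of 0.05 with a fold change of at least 2, against 3.37% of all tested miRNAs. At an unadjusted p under 0.05 there was 1 member, against 65 of 386 miRNAs, and DESeq2 also called 0 members. Without the mare as a block, 0 of the 386 miRNAs were called. A fit over all 28 libraries that kept the block also called 0 miRNAs, and a filter at a minimum count of 10 left 3. The background thus depends on the block, the libraries fitted and the filter. Of the 386, 267 were known and the rest predicted. The paper states that the number of predicted miRNAs was probably too high because of duplicates. Shares over all miRNAs, here and below, may therefore count a sequence repeatedly. The members' log2 fold changes, pregnant minus cyclic, had a median of −0.05 beside 0.08 over all miRNAs, and 4 of 9 lay above 0.

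The member with the largest difference was eca-miR-362-5p. Its log2 fold change was 1.498 (95% interval 0.33 to 2.67), with an unadjusted p of 0.0120 and an FDR of 0.223 by edgeR, and its CPM was higher in the pregnant sample in 4 of 4 mares. In its cyclic libraries, mares 1 and 3 had 0 and 2 reads, both under the floor. In mare 1 that floor was 48.5 CPM, above the 32.0 CPM of its pregnant sample, so the direction in mare 1 is not settled. The share of all miRNAs that were higher in 4 of 4 mares was not counted. eca-miR-660 had a log2 fold change of 0.35 (−0.24 to 0.94, FDR 0.778) and was higher in 3 of 4 mares. Without mare 3 the value for eca-miR-362-5p was 0.72 and without mare 4 it was 2.09, and it was above 0 in each fit with 1 mare left out.

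The other members lay on both sides of 0, with intervals that all cross it. The log2 fold change was −0.05 (−0.58 to 0.48) for eca-miR-532-5p, −0.37 (−1.14 to 0.39) for eca-miR-532-3p and −0.11 (−0.88 to 0.67) for eca-miR-502-3p. The partner arm eca-miR-362-3p stood at −0.60 (−1.91 to 0.72), on the other side of 0 from eca-miR-362-5p. The weakly counted eca-miR-500 and eca-miR-188-5p had values of 0.34 and −0.15, with intervals that reach past 1 on both sides of 0. eca-miR-502-5p had a value of 1.02 (−1.51 to 3.55) on 6 pregnant and 2 cyclic reads. The signs of eca-miR-532-5p, eca-miR-502-3p, eca-miR-362-3p and eca-miR-188-5p turned without the block or with 1 mare left out.

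Mare by mare, the cluster showed no common direction in the endometrium. Among members with more than 3 reads in either sample of a mare, the pregnant sample had the higher CPM for 2 of 5 in mare 1, 3 of 8 in mare 2, 6 of 8 in mare 3 and 3 of 8 in mare 4. The summed cluster in the pregnant sample was 0.525 times that of the cyclic one in mare 1, 0.916 times in mare 2, 1.24 times in mare 3 and 0.962 times in mare 4. Mare 3, the 1 animal with a higher pregnant sum, was the mare with the lowest cyclic level.

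In UF, 0 of 8 tested members were called between pregnant and cyclic mares by the same edgeR test, against 4.92% of all tested miRNAs, and DESeq2 called 0. That background was 0% without the block, in the fit over all 28 libraries with the block, and with the filter at a minimum count of 10. It was 8.02% without mare 1, 2.29% without mare 2, 0.898% without mare 3 and 0.926% without mare 4. At an unadjusted p under 0.05 there was 1 member, against 41 of 305 miRNAs. Here the members' median log2 fold change was −0.64 beside 0.0032 over all miRNAs, and 2 of 8 lay above 0. These were eca-miR-500 and eca-miR-362-5p, the latter at 1.114 (−0.19 to 2.41, FDR 0.496 by edgeR). The partner arm of eca-miR-362-5p, eca-miR-362-3p, had the lowest value, −1.94 (−3.85 to −0.03), with an unadjusted p of 0.0466 and an FDR of 0.365 by edgeR. Its CPM was higher in the pregnant sample in 0 of 4 mares. All 5 pregnant UF libraries were at or under the floor for it, with 5 reads together. In mare 3 the pregnant and cyclic samples had 2 and 1 reads. In mare 4 the pregnant floor, 36.2 CPM, lay above the 20.5 CPM of the cyclic sample. The direction in mares 3 and 4 is therefore not settled, and the share of all miRNAs higher in 0 of 4 mares was not counted. eca-miR-362-3p stood at −1.20 without mare 1, −2.57 without mare 2 and −2.54 without mare 3, and eca-miR-362-5p at 0.63 without mare 3.

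eca-miR-532-3p and eca-miR-502-3p both had log2 fold changes of −1.08 in UF, with intervals of −2.21 to 0.06 and −2.20 to 0.03. eca-miR-532-5p stood at −0.51 and eca-miR-660 at −0.27, neither distinguishable from 0. The pregnant sample had the higher CPM for 1 of 8 members in mare 1, 2 of 9 in mare 2, 6 of 6 in mare 3 and 0 of 7 in mare 4. Mare 3 thus stood apart in UF as well. Over all miRNAs above the same floor, the pregnant UF was higher for 30.4%, 40.8%, 66.5% and 36.6% in mares 1 to 4, the same order of mare 3 against the rest, and the part of this wider difference in the members' values was not tested.

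**Figure D3:**
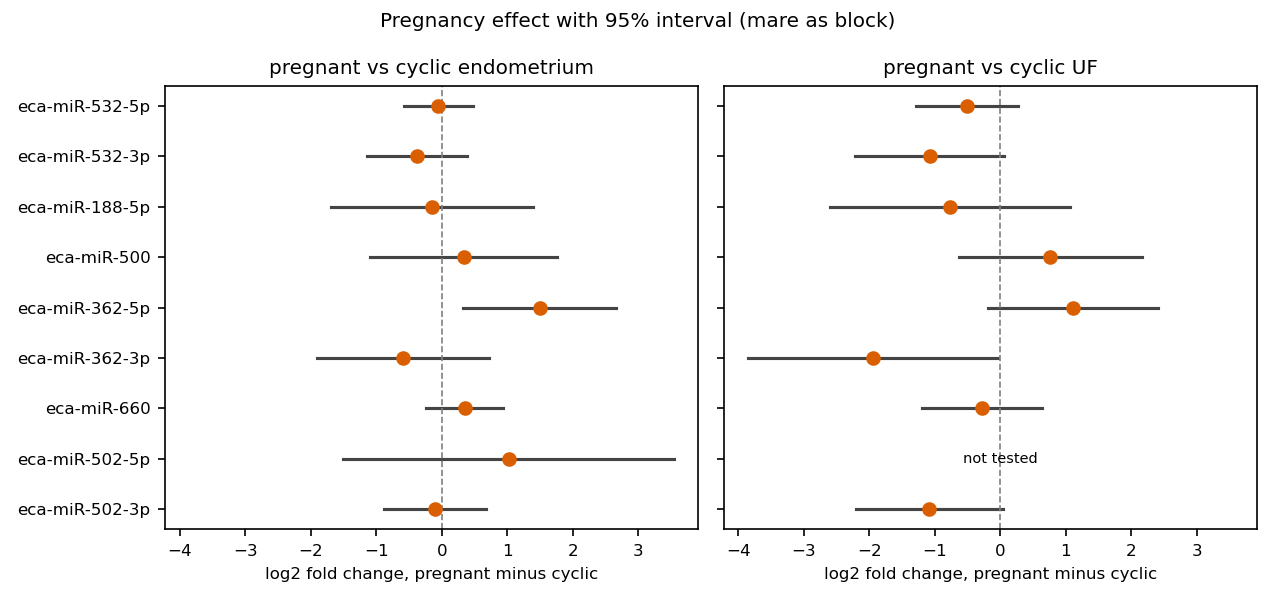
log2 fold change, pregnant minus cyclic, with its 95% interval for the members tested in endometrium (left) and UF (right), edgeR with the mare as block. The points of eca-miR-362-5p lie above 0 in both panels and those of eca-miR-362-3p below 0, and the intervals of eca-miR-362-5p in endometrium and eca-miR-362-3p in UF are the only ones that do not cross 0.

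An interaction term tested if the pregnancy effect was unequal in the 2 compartments. By edgeR, 0 of 9 members were called, against 1.69% of all tested miRNAs, and 0 had an unadjusted p under 0.05, against 28 of 415. DESeq2 called 0 as well. The UF effect minus the endometrial effect was below 0 for 8 of 9 members, while 38.6% of all tested miRNAs lay above 0 and their median was −0.27. The value for eca-miR-502-3p was −1.10 (−2.40 to 0.19).

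The opposite signs of eca-miR-362-5p and eca-miR-362-3p led to a comparison within the hairpin, chosen after these values were seen. The reads of the 5p arm were divided by those of both arms in the same library, a share that no scaling of libraries can move. In cyclic endometrium the 5p arm had 0 of 2, 12 of 32, 2 of 3 and 18 of 34 miR-362 reads in mares 1 to 4. In pregnant endometrium it had 11 of 12, 19 of 22, 35 of 48, 23 of 35 and 10 of 25 in mares 1 to 5. The mean share was 71.3% ± 20.3 (SD, n = 5) in pregnant and 39.3% ± 28.8 (n = 4) in cyclic samples, with overlap between the groups.

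In UF the 5p arm of miR-362 had 2 of 12, 22 of 31, 0 of 1 and 6 of 10 reads in cyclic samples of mares 1 to 4 and 5 of 5, 19 of 21, 13 of 15, 1 of 1 and 5 of 6 in pregnant samples of mares 1 to 5. The mean share was 92.1% ± 7.65 (n = 5) in pregnant and 36.9% ± 34.0 (n = 4) in cyclic UF, and the lowest pregnant share, 83.3%, lay above the highest cyclic one, 71.0%. Both the cyclic library of mare 3 and the pregnant library of mare 4 rested on a single read, for which the Wilson 95% intervals were 0% to 79.3% and 20.7% to 100%.

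Exact 2-sided permutation tests over libraries gave p = 0.0952 in endometrium and p = 0.0159 in UF, the smallest p that 5 against 4 libraries allow. These tests do not use the pairing, and a paired test over 4 mares cannot go below 0.125. The share was higher in the pregnant sample in 4 of 4 mares in both compartments. Groups did not overlap for 4.35% of the 23 hairpins tested in endometrium and 5.88% of the 17 tested in UF, and the share differed in one direction in all 4 mares for 21.7% and 17.6% of them. miR-362 had the largest difference in mean share of these hairpins in both compartments, and in UF it was itself the 1 hairpin without overlap. The means weight each library equally, also those with a single read. With reads pooled over libraries, the 5p share of miR-362 was 69.0% in pregnant and 45.1% in cyclic endometrium. In UF the pooled shares were 89.6% in pregnant and 55.6% in cyclic samples. The ranking of hairpins was not adjusted for read depth. With Benjamini-Hochberg adjustment over all hairpins tested, the exact permutation p became 0.270 in UF, so the difference did not pass. With mare 1, 2, 3 or 4 left out, the UF difference was 44.2 to 66.9 percentage points with an exact permutation p of 0.0571, the smallest possible at those sizes. In endometrium the difference without mare 1 was 13.9 percentage points, against 32.1 with all mares.

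miR-532 was counted far more deeply than miR-362. The 5p arm took 90.7% ± 1.79 (n = 5) in pregnant and 88.5% ± 5.68 (n = 4) in cyclic endometrium (exact permutation p = 0.444), and 94.1% ± 4.22 and 90.6% ± 4.45 in pregnant and cyclic UF (exact permutation p = 0.254). It was higher in the pregnant sample in 3 of 4 mares in endometrium and 4 of 4 in UF, by a few percentage points.

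**Figure D4:**
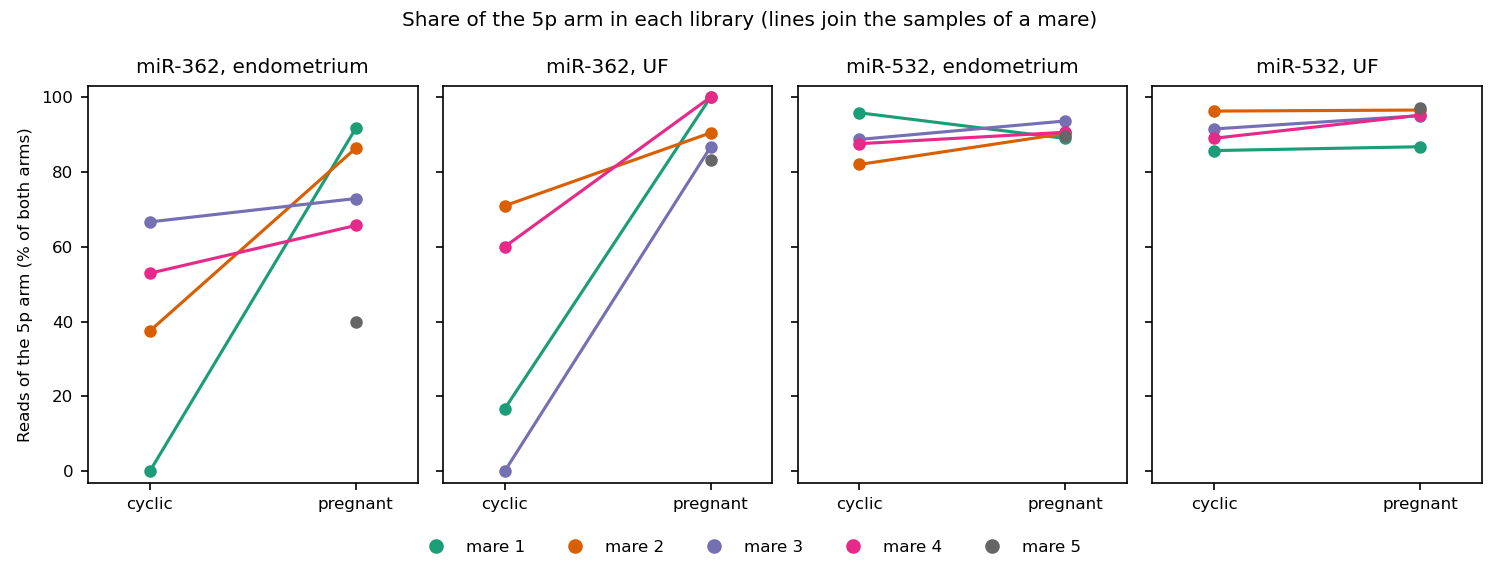
Reads of the 5p arm as a percentage of the reads of both arms of miR-362 and miR-532 in each cyclic and pregnant library of endometrium and UF; lines join the samples of 1 mare, and mare 5 has no cyclic library. For miR-362 all 4 lines end higher on the pregnant side in both compartments; cyclic UF spans 0 to 71.0% and pregnant UF 83.3 to 100%, and the miR-532 shares lie between 82.0 and 97.1%.

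Embryo and mother were compared next, within the pregnant mares. In embryos against pregnant endometrium, 3 of 9 tested members passed the edgeR test, all of them higher in embryos, against 71.3% of all tested miRNAs called in either direction. The count was 2 without mare 3 and 3 with any other mare left out. eca-miR-188-5p had a log2 fold change of 2.54 (95% interval 1.16 to 3.91, FDR 0.00398), eca-miR-500 of 1.82 (0.60 to 3.05, FDR 0.0121) and eca-miR-362-5p of 1.75 (0.72 to 2.78, FDR 0.00570). eca-miR-532-5p, at 0.71 (−0.0041 to 1.43, FDR 0.0663), did not pass. The members' median was 0.71 where that of all miRNAs was −1.02 and that of the 254 known miRNAs tested −1.73.

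The embryo values depended on the scaling. TMM, the scaling that edgeR uses by default, moved the embryo-to-endometrium ratio by 1.32 on the log2 scale relative to plain library totals. With plain totals 5 members were called, with RLE size factors 4 and with DESeq2 4, all higher in embryos. Over all miRNAs, plain totals called 140 higher and 94 lower, RLE 115 and 133, and DESeq2 90 and 120. eca-miR-660 stood at −0.25 with TMM and at 1.03 with plain totals, eca-miR-532-3p at −0.61 and 0.67, and eca-miR-502-3p at −0.64 and 0.68, so these 3 members have no settled direction between embryo and endometrium. eca-miR-188-5p, eca-miR-500 and eca-miR-362-5p were above 0 with TMM, RLE size factors and plain totals alike. In plain CPM, every embryo lay above every pregnant endometrium for 5 of 9 members and for 27.9% of all tested miRNAs. The 5 include eca-miR-660, whose sign turned with the scaling, and eca-miR-500, with 1 read each in the embryos of mares 1 and 4. That single read was worth 35.5 and 34.6 CPM, above the highest pregnant endometrium, 23.7 CPM, so the gap for eca-miR-500 rests on library size there.

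**Figure D5:**
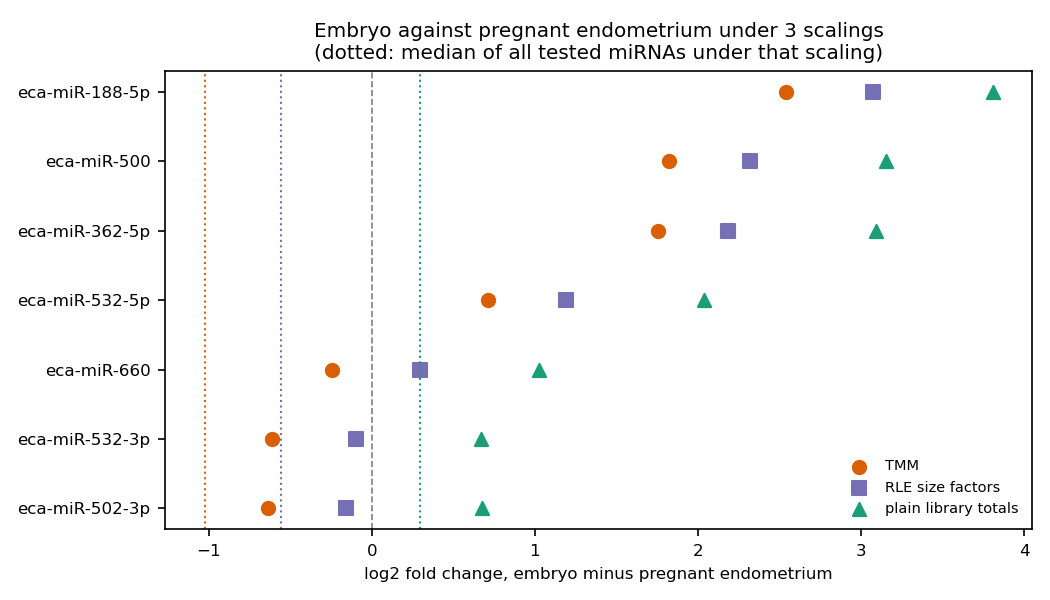
log2 fold change, embryo minus pregnant endometrium, of 7 members with TMM, RLE size factors and plain library totals; dotted lines mark the median of all tested miRNAs in the colour of each scaling. The members keep nearly the same spacing while the whole set moves, and eca-miR-660 crosses 0.

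The make-up of the cluster, which scaling cannot alter, is given for embryos and pregnant endometrium as a description, with no test. eca-miR-362-5p took 2.25% ± 0.997 of a library's member reads in pregnant endometrium and 5.06% ± 1.64 in embryos (SD, n = 5 each). eca-miR-188-5p took 0.524% ± 0.338 and 2.90% ± 1.85, and eca-miR-500 0.607% ± 0.221 and 1.46% ± 0.832. The shares of the 3p arms ran the other way, from 5.69% ± 1.03 to 3.12% ± 1.78 for eca-miR-532-3p and from 5.37% ± 0.576 to 2.59% ± 1.00 for eca-miR-502-3p. eca-miR-660 went from 29.0% ± 4.15 to 19.6% ± 8.0 and eca-miR-532-5p from 55.5% ± 4.07 to 64.7% ± 9.61.

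Within the hairpins, the 5p arm of miR-362 took 91.4% ± 7.69 of the reads in embryos against 71.3% ± 20.3 in pregnant endometrium (exact permutation p = 0.0556, n = 5 each), with 4 of 5, 15 of 17, 24 of 25, 15 of 15 and 25 of 27 reads in the embryos of mares 1 to 5. The 5p arm of miR-532 took 95.1% ± 3.41 against 90.7% ± 1.79 (exact permutation p = 0.0476, 0.101 after adjustment over 17 hairpins). Neither hairpin passed the adjusted threshold, and shares did not overlap for 23.5% of the hairpins tested.

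Against pregnant UF, 1 of 8 tested members was called in embryos, and it was higher. Of all 310 tested miRNAs, 68.4% were called, 92 higher and 120 lower in embryos. The count was 6 with plain totals, and 2 without mare 1 or mare 2. The member called was eca-miR-188-5p, with a log2 fold change of 2.22 (1.02 to 3.42, FDR 0.00384 by edgeR), while eca-miR-362-5p had 1.01 (−0.48 to 2.50, FDR 0.205). Embryo and YS fluid differed in 2 of 7 tested members, both higher in embryos. Of all 259 tested miRNAs, 35.1% were called, 57 higher and 34 lower in embryos. eca-miR-362-5p was higher in embryos by 3.38 (1.47 to 5.29, FDR 0.0153 by edgeR) and eca-miR-188-5p by 2.93 (1.32 to 4.54, FDR 0.0142), on 3 and 2 reads in the 5 YS fluids together. With each mare left out in turn the count of members was between 0 and 2, with 0 without mare 5 and 1 without mare 2 or mare 4. Over all miRNAs, 21 were higher and 19 lower without mare 5, 30 and 16 without mare 2, and 20 and 28 without mare 4.

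Between YS fluid and pregnant endometrium, 53.1% of all 341 tested miRNAs were called with TMM, 61 higher and 120 lower in YS fluid. Among the members, 3 of 8 tested were called, all lower in YS fluid. They were eca-miR-362-3p, with no read in YS fluid, eca-miR-502-3p at −1.76 (FDR 0.0433 by edgeR) and eca-miR-532-3p at −1.44 (FDR 0.0359). The count of members was 0 without mare 4, where 67 of all miRNAs were higher and 110 lower, and without mare 5, with 53 and 97. With RLE size factors or DESeq2, 0 members were called. Over all miRNAs, RLE called 78 higher and 87 lower, and DESeq2 78 and 79. With plain totals 1 member was called higher, where 119 of all miRNAs were higher and 59 lower. The calls with TMM thus did not hold across scalings, and eca-miR-502-3p and eca-miR-532-3p turned sign with plain totals. eca-miR-362-3p in pregnant endometrium, at most 52.1 CPM, lay under the YS fluid floor of at least 206 CPM, so a difference in it was not detectable at this depth. Against pregnant UF, 0 of 7 members were called in YS fluid by edgeR, 0 also at an unadjusted p under 0.05, against 59.2% of all miRNAs, and DESeq2 called 0.

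UF and endometrium of the same condition were also compared. By edgeR, 0 of 9 members were called between pregnant UF and pregnant endometrium, against 33.7% of all miRNAs, and 0 of 8 between cyclic UF and cyclic endometrium, against 30.8%. At an unadjusted p under 0.05 there were 0 members in both comparisons, and DESeq2 called 0 in both. The members' median log2 fold change, UF minus endometrium, was −0.08 in pregnant and 0.24 in cyclic mares, beside −0.12 and −0.24 over all miRNAs.

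Other miRNAs of the X chromosome gave a background. Of 35 further known miRNAs whose genes lie on X in the same RefSeq annotation, among them miR-106a, miR-363, miR-424, miR-503, miR-221 and miR-222, 28 had a read. In pregnant against cyclic mares, 0 of 23 tested in endometrium and 0 of 16 tested in UF were called by edgeR, with median log2 fold changes of −0.24 and 0.07. In embryos against pregnant endometrium, 9 of 24 were higher and 12 lower, with a median of −1.83, where the cluster had 3 higher and 0 lower of 9 and a median of 0.71.

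The known miRNAs whose 6 group means followed the summed cluster most closely, of 190 with at least 100 CPM in a group, were eca-miR-130b (Pearson's r = 0.989 on the log2 scale over 6 groups), eca-miR-378 (0.981), eca-miR-18a (0.975), eca-miR-20a (0.971) and eca-miR-1307 (0.969). All 5 had lower means in every uterine group than in embryo and YS fluid. Not all were low in the uterus, as eca-miR-378 averaged 1545 to 2036 CPM in the uterine groups. The groups share mares, and these values describe 6 points only.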

How the data were processed

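Per the paper's methods, the authors trimmed small RNA reads with cutadapt 1.11, dropped reads under 17 bases or a quality score of 20, counted them with miRPro on miRBase release 22 and EquCab2.0, and deposited raw counts per mature miRNA. How reads that fit several miRNAs were counted is not given in the sources used here. Known and predicted miRNAs were analysed as 1 table, the precursor table repeating the predicted ones in 154 of 154 entries, and CPM was computed from the deposited counts. The members and lists were chosen with earlier results of these data known.

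edgeR 4.0.16 (R 4.3.3) was run on the libraries of each comparison alone: TMM, at least 1 CPM in as many libraries as the smaller group, quasi-likelihood test, called at an FDR of 0.05 and a fold change of 2, adjusted over all tested. Scripts were tested on simulated data. Pregnant against cyclic fits held the mare as a block, since the methods name the same mares. That equal replicate numbers are the same mare was inferred, as the labels do not say so. Same-mare deviations correlated by 0.165 on average in endometrium (lowest −0.14) and 0.235 in UF, against −0.04 and −0.06 for other pairs. Named were all members with a read, with values by library for eca-miR-362-5p, eca-miR-660 and the 2 others most counted. The arm shares were added after the data were seen, with exact permutation tests and Wilson 95% intervals. Alternatives were RLE, DESeq2 1.42.0, the likelihood ratio test, other filters, block choices, all 28 libraries, plain totals and each mare left out. Precursors were ordered from RefSeq TB-T2T, used for names and order only.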

Additional observations from a re-analysis of the deposited data

Results flagged for a closer look

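The summed cluster and each member read often enough were checked in 46 groups of 4 or 5 libraries. Of these, 2 held a library far from the rest, where chance alone gives about 1 in 20. eca-miR-660 measured 2345 CPM in the embryo of mare 2, while the other 4 embryos lay between 1280 and 1418 CPM. eca-miR-500 measured 92.1 CPM in the pregnant UF of mare 2, while the other 4 lay between 19.6 and 29.7 CPM. These values rest on 11 reads in mare 2 and on 4, 3, 2 and 2 reads in mares 1, 3, 4 and 5. Of the 5 libraries, 3 were at or under the floor of 3 reads.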

How the results depend on the processing

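Between pregnant and cyclic mares, 0 members were called in endometrium, in UF or for their difference under every alternative run, among them the fits with no replicate block and with all 28 libraries. The largest difference there, eca-miR-362-5p in endometrium, was 1.03 without the replicate block and 0.72 to 2.09 with 1 mare left out, with an FDR of 0.115 to 0.971 over all its alternatives. Signs turned in endometrium for eca-miR-502-3p (0.11 without the block), eca-miR-532-5p (0.055 without the block, −0.45 to 0.13 with 1 mare left out, above 0 without mare 1), eca-miR-362-3p (−1.76 to 0.19, above 0 without mare 2) and eca-miR-188-5p (−0.54 to 0.22, above 0 without mare 4). The replicate block moved no count of members by over 1.5 times in the comparisons of tissues and fluids, with the block calling 3 members in embryos and 2 in YS fluid against pregnant endometrium. Scaling mattered most: RLE moved the median of all miRNAs by 0.47 in embryos and 0.82 in YS fluid against endometrium, and plain totals by 1.32 and 1.99. For embryos against endometrium, plain totals called 5 members, RLE 4, DESeq2 4 and fits with a mare left out 2 to 3. In that comparison eca-miR-660 stood at 0.29 with RLE, 0.29 with DESeq2 and 1.03 with plain totals. With plain totals eca-miR-502-3p stood at 0.68 and eca-miR-532-3p at 0.67. For YS fluid against endometrium, 0 members were called with RLE, 0 with DESeq2, 5 without a filter, 1 with plain totals and 0 to 3 with a mare left out. Without a filter, 75 of all miRNAs were higher and 129 lower in that comparison. There eca-miR-532-5p stood at 0.82 with RLE, 0.82 with DESeq2, 1.98 with plain totals and −0.22 to 0.12 with a mare left out, above 0 without mare 1, and plain totals gave 0.26 for eca-miR-502-3p and 0.59 for eca-miR-532-3p. Against pregnant UF, embryos had 2 members called with RLE, 2 with DESeq2, 6 with plain totals and 1 to 2 with a mare left out, and YS fluid had 2 with plain totals and 0 to 1 with a mare left out. Over all miRNAs, embryos against UF had 116 higher and 100 lower with RLE and 91 and 101 with DESeq2. YS fluid against UF had 114 higher and 53 lower with plain totals. Embryo against YS fluid gave 0 to 2 with a mare left out. The cause of these moves, beyond the scaling itself and fewer samples, was not tested. Depth limits YS fluid most, where 3 reads are at least 206 CPM.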
